A study of Mus musculus with 2 samples.

Results

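The homeobox and Pax genes described here are 57 regulators best known from regions of the embryo other than the retina: the forebrain, the midbrain, the spinal cord, the somites and skeleton, and the gut, heart and tail end. They were taken by name and matched to the GENCODE annotation of the mouse genome, where all 57 were found among 21938 protein-coding genes. The samples were 2 libraries of DNase-seq, an assay that maps the stretches of chromatin open to the enzyme DNase I. Both came from retina of healthy mouse embryos of strain B6NCrl at 14.5 days, with males and females pooled, and are biological replicates 1 and 2 of a single group with no treatment named. They carry separate biosample labels and 1 shared donor label, so the spread between them may not be that between litters. There was no second condition, so each value is given for replicate 1 and then for replicate 2, and no test between groups exists.

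Homeobox and Pax proteins are DNA-binding factors that give each region of the embryo its identity. Each is switched on by enhancers that can lie far from the gene, and in tissues that do not use it the promoter is often held by Polycomb proteins rather than closed by DNA methylation, because most of these promoters are rich in CpG. The embryonic retina of this stage is made of progenitors that still divide and of the first neurons, and it uses its own set of such factors, among them Pax6, Rax and Six6. Open chromatin at a gene is not transcription, and no RNA was measured. In a bulk sample, a peak from few cells and a weakly open site in all cells cannot be told apart.

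The deposited lists held 165269 peaks in replicate 1 and 219308 in replicate 2, nearly all 150 bp wide, with a score of unstated meaning, and 145732 and 183723 hotspots, which are wider regions of raised cutting. The lists give no read numbers, so depth is unknown and a missing peak sets no limit on accessibility. In both libraries all 9 progenitor markers and all 7 ganglion cell markers had a promoter peak. Of markers for other cells that a dissection could bring in, 9 of 10 for periocular mesenchyme, 6 of 7 for telencephalon (a list that holds the member Lhx6), 4 of 8 for endoderm, 4 of 5 for neural crest and glia, 4 of 10 for lens, 3 of 7 for muscle, 3 of 7 for pigment epithelium and 2 of 6 for endothelium had one in both. Defining genes with no promoter peak in either library included Col3a1, Cryaa, Myf5, Tyr, Cdh5 and Alb. The part of other cells in the values below was not tested. The libraries differed over whole loci at 8 members, Cdx2 among them, and those values are given at the end with the medians that leave Cdx2 out.

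Most of these genes had an open promoter in the retina, here one that holds a peak, but the peak scored low beside those of other open genes. A promoter, the 1 kb on either side of any start site of the gene, held a peak for 48 of 57 members in replicate 1 (84.2%, against 69.7% of all protein-coding genes) and for 53 of 57 in replicate 2 (93.0%, against 71.3%). In both libraries 47 of 57 were open (82.5%, exact Clopper-Pearson 95% interval over genes 70.1 to 91.3), beside 68.8% of all genes. Among the 26 members in the top 3 deciles of promoter CpG, 25 were open in both, beside 99.1% of all genes of those deciles. All 30 homeobox and Pax genes of the retina were open in both, and 17 of 39 Hox genes were.

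By score, the promoter peaks stood below those of the typical open gene. Each peak was ranked by its score among all peaks of its library, so that 100 is the strongest. The strongest promoter peak of an open member had a median rank of 77.4 in replicate 1 and 78.3 in replicate 2 (mean 77.9 ± 0.616, SD, n = 2), while the median over all open genes was 94.98 and 95.91. In deposited score the members' medians were 57 and 81, against 107 and 125. Only 6 of the 47 members open in both reached rank 90 in both libraries (12.8%, interval 4.83 to 25.7), beside 69.4% of all such genes. The retinal homeobox and Pax genes had medians of 93.5 and 93.7, and the open Hox genes 80.9 and 80.5.

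The ranks were also low beside genes of like CpG content. Of the 47 members open in both libraries, 43 lay below the median rank of all open genes in their own decile of promoter CpG in both (91.5%, beside 41.2% of all genes). The exceptions were Nkx6-1, Pax5, Pax8 and Msx1. In CpG decile 6, which has the most members, 13 of 16 members were open in both, beside 96.3% of all genes there. The higher share of open promoters among members than among all genes thus did not hold within that decile. The median rank of all open genes there was 94.6 and 95.9.

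The members' promoters were also open in a scattered way. An open member had a median of 4 promoter peaks in each library, against 2 and 3 over all open genes. These counts cover every start site of a gene. Around the 5′ end alone, members open in both libraries had medians of 3 and 4, and all such genes 2 and 2. Retinal homeobox and Pax genes had 3 and 4, so the number of peaks was not particular to the members. The strongest peak lay within 250 bp of a start site in both libraries for 21 of 47 members (44.7%), beside 80.5% of all genes open in both. The strongest peaks of the 2 libraries overlapped at 32 of 47 members. That overlap was not counted over all genes, so it is not a result about the members. Shox2, a limb and sinoatrial node regulator, had 13 and 11 promoter peaks over 5 start sites. Emx2 had 11 and 10 over 3 start sites, and Pax1 had 7 and 11 over 3, while Gbx2, with 2, had 1 peak in each library.

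**Figure D1:**
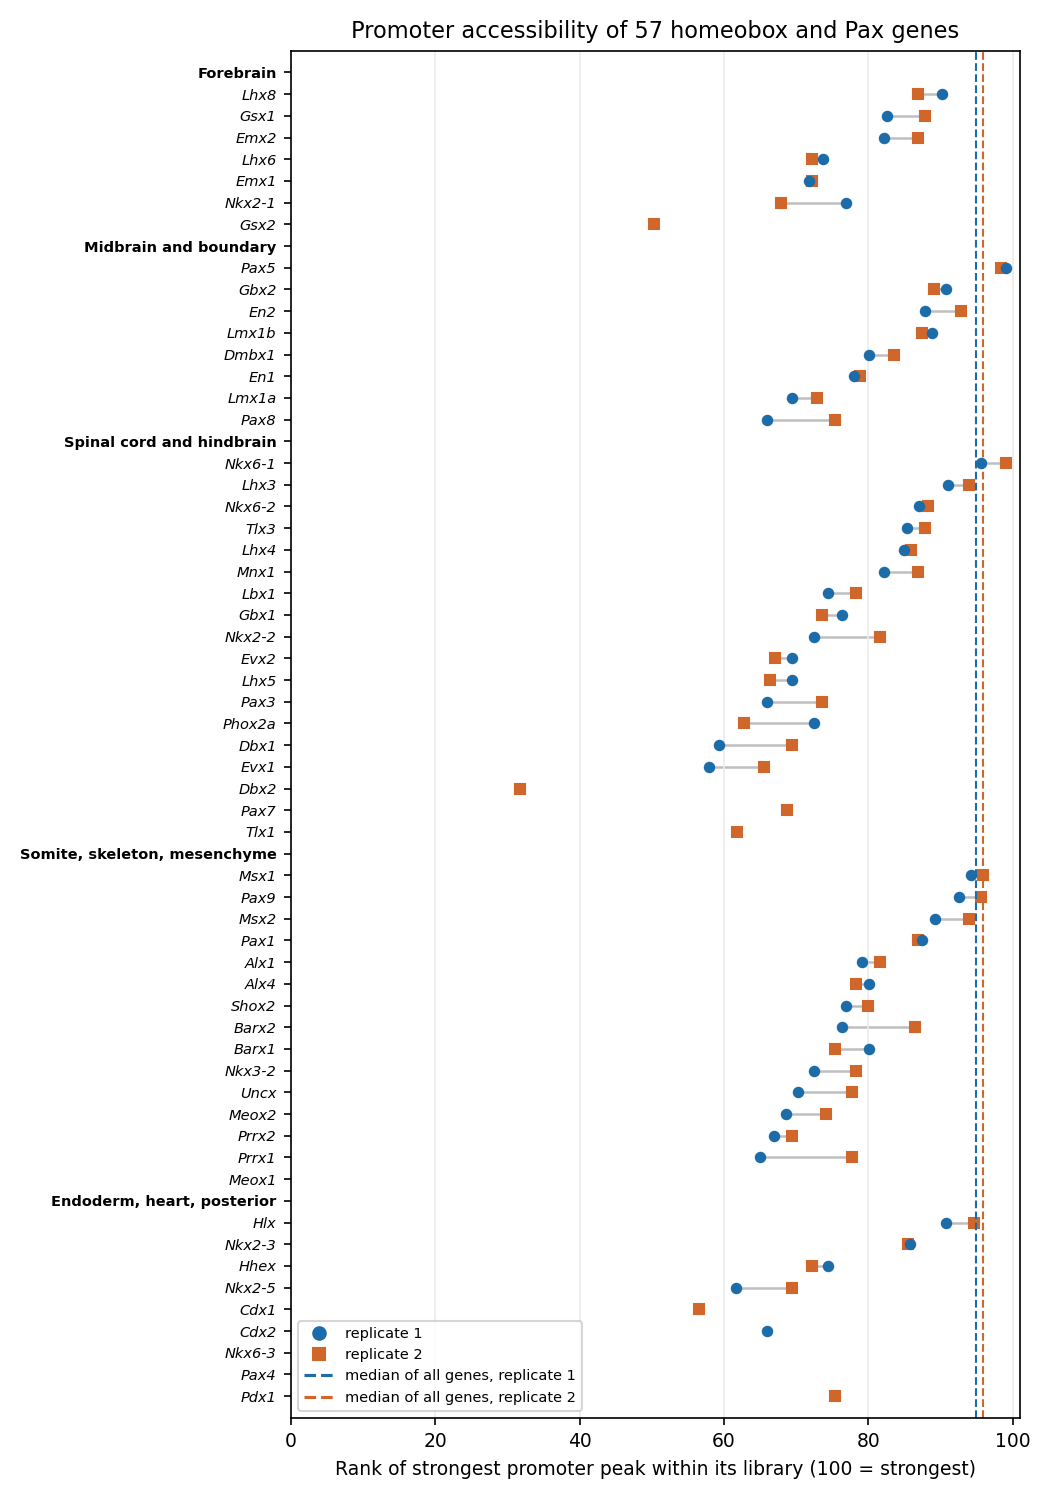
Rank of the strongest promoter peak for each of the 57 members (x axis, 0 to 100, percentile within the library), grouped by the body region the gene is known from; circles are replicate 1, squares replicate 2, and a missing symbol means no promoter peak. Nearly all symbols lie left of the dashed lines, the medians of all open genes at 94.98 and 95.91, and the endoderm, heart and posterior group has the most missing symbols.

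Among the forebrain genes, 6 of 7 were open in both libraries, with median ranks of 79.5 and 72.2 over those open in each. Lhx8, a regulator of cholinergic neurons of the ventral forebrain, stood at ranks 90.2 and 86.9, the highest of the group in replicate 1. Gsx1, of the ventral forebrain, was highest in replicate 2, at 82.7 and 87.8, and Emx2, which patterns the cerebral cortex, at 82.2 and 86.9. Emx1 and Lhx6, markers of the cortex and of interneurons from the ventral forebrain, were lower, at 71.7 and 72.2 and at 73.8 and 72.2. Nkx2-1, the ventral forebrain, lung and thyroid regulator, had ranks of 76.9 and 67.9, the largest difference between the libraries in the group. Gsx2, the close relative of Gsx1, had no promoter peak in replicate 1 and 3 in replicate 2, the strongest at rank 50.3.

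The genes of the midbrain and its boundary with the hindbrain were open in both libraries for 8 of 8, at median ranks of 84.0 and 85.5, the highest of the 5 groups in both libraries. Pax5 (chr4:44524757-44710487), known from this boundary and from B cells, had the strongest promoter peak of all 57 members in replicate 1, with scores of 128 and 136 at ranks 99.0 and 98.4. That peak lay 505 bp upstream of the nearest Pax5 start, in an exon of the noncoding gene 5730488B01Rik, so it counts for both genes. Measured only around the 5′ end of Pax5, the rank in the lower library was 57.9. Gbx2, a hindbrain regulator, stood at 90.8 and 89.1, En2 at 87.8 and 92.8, and Lmx1b, of serotonin neurons and the dorsal limb, at 88.9 and 87.4. Dmbx1 had ranks of 80.1 and 83.6, En1 78.0 and 78.9, Lmx1a 69.5 and 72.9, and Pax8 66.0 and 75.4. With a window of 500 bp, or around its 5′ end alone, Pax8 stood at 38.02 in the lower library. En1 and En2, which act together in the midbrain, thus stood apart, En2 higher in both libraries.

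Genes of spinal cord and hindbrain neurons formed the largest group, and 15 of 18 were open in both libraries. Median ranks were 74.4 and 73.5 over those open in each. Nkx6-1 (chr5:101658139-101664996), which patterns the ventral neural tube, led with scores of 110 and 139 at ranks 95.6 and 99.1, and its replicate 2 value was the highest of all members there. Lhx3, of motor neurons and the pituitary, had ranks of 91.1 and 94.0 with a peak centred 2 bp from its start in replicate 1. Nkx6-2 stood at 87.0 and 88.3, Tlx3 at 85.4 and 87.8, Lhx4 at 84.9 and 86.0, and the motor neuron gene Mnx1 at 82.2 and 86.9. A lower set followed, with Gbx1, Lbx1 and Nkx2-2 between 72.4 and 81.6 and Evx2, Lhx5 and Pax3 between 66.0 and 73.5. Phox2a, of noradrenergic and oculomotor neurons, had ranks of 72.4 and 62.7. By the lower of the libraries, the weakest promoters open in both in this group were those of the interneuron regulators Dbx1 (59.3 and 69.4) and Evx1 (57.9 and 65.5), although Phox2a was lower in replicate 2. Pax7, Tlx1 and Dbx2 had no promoter peak in replicate 1 and ranks of 68.7, 61.8 and 31.7 in replicate 2.

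In the genes of somites, skeleton and mesenchyme 14 of 15 were open in both libraries, at median ranks of 78.0 and 79.1. Msx1, a mesenchyme and neural crest regulator, led at 94.2 and 95.9, followed by Pax9, of the sclerotome and teeth, at 92.6 and 95.7, Msx2 at 89.2 and 94.0 and Pax1 at 87.4 and 86.9. Alx1 and Alx4, of facial mesenchyme, lay between 78.3 and 81.6, and Shox2 at 76.9 and 79.9. Barx1 had 80.1 and 75.4 and Barx2 76.3 and 86.5. Nkx3-2, Uncx and Meox2 lay between 68.6 and 78.3, and the limb mesenchyme genes Prrx1 and Prrx2 between 65.0 and 77.7. Meox1, a somite regulator, had no promoter peak in either library, while its relative Meox2 had 4 and 5. Periocular mesenchyme markers were open in both libraries for 9 of 10, beside 68.8% of all genes, and the part of such cells was not tested.

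The genes of endoderm, heart and the posterior body had the fewest open promoters. They were open in both libraries for 4 of 9, and the median ranks over those open in each were 74.4 and 73.8. Hlx, of liver and gut mesenchyme, stood at 90.8 and 94.7, and Nkx2-3, of gut mesenchyme and spleen, at 85.8 and 85.5. Hhex, of liver and thyroid, had 74.4 and 72.2, and the heart regulator Nkx2-5 had 61.7 and 69.4. The pancreas and stomach genes Pax4 and Nkx6-3 had no promoter peak in either library, Pdx1 had none in replicate 1 and a peak at rank 75.4 in replicate 2, and Cdx1 none and 56.5. Cdx2, the intestine and trophoblast regulator, was the only member open in replicate 1 alone, at rank 66.0. Endoderm markers were open in both for 4 of 8.

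The members closed in both libraries, Nkx6-3, Pax4 and Meox1, lay in CpG deciles 3, 2 and 4, where 28.4%, 9.48% and 63.5% of all genes were open in both. Low CpG did not set them apart, since Pax8, Prrx1 and Meox2, in deciles 3, 4 and 4, were open in both. The members open in 1 library alone lay in deciles 4 to 8. A group of 6 members has a described place in the eye, namely Lhx3, Lhx4, Gbx2, Lmx1b, Msx1 and Msx2. All 6 were open in both, beside 47 of 57 members and 68.8% of all genes, at median ranks of 90.02 and 91.56. Those 6 were listed with earlier results of these data known, so their values cannot show a link between a place in the eye and promoter rank.

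The sequences of the strongest promoter peaks shared by both libraries show what kind of DNA was open at the members with the strongest promoters. They are given on the plus strand of GRCm38 (mm10), as called in replicate 1, with CpG dinucleotides in capitals. The Pax5 peak lay at chr4:44704436-44704585 and held 15 CpG, and the Nkx6-1 peak lay 435 bp upstream of the start at chr5:101665356-101665505, between genes, and held 10. For Msx1 and Lhx3 the part outside coding-gene exons is given, chr5:37824584-37824685 of a peak starting at 37824536, and chr2:26208290-26208365 of a peak starting at 26208216. The Pax9 peak, chr12:56695476-56695625, lay inside an exon of Pax9.
Pax5: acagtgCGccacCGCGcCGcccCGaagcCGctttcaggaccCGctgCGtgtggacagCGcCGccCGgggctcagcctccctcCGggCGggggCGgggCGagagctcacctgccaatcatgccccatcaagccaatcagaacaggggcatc
Nkx6-1: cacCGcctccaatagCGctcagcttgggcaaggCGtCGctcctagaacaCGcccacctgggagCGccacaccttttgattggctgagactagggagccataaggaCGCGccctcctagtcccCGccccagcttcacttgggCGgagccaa
Msx1: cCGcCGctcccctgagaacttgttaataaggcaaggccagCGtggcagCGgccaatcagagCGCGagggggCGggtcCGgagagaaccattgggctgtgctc
Lhx3: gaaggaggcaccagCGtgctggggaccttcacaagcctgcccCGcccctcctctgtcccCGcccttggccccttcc
Both full-length sequences were over 60% G and C, 71.3% for Pax5 and 63.3% for Nkx6-1. Over all members' promoter peaks shared by the libraries the median was 60.7%, against 62.7% over all such promoter peaks of the genome, and the median number of CpG was 9.5 against 10. In base composition the members' promoter peaks were thus close to ordinary ones, while their scores were lower.

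Hotspot width at the promoters differed between the libraries. The widest hotspot overlapping a member's promoter had a median width of 651 bp in replicate 1 and 1713 bp in replicate 2 (mean 1182 ± 751 bp, SD, n = 2), counting members without one as 0, and over all genes the medians were 843.5 and 1090 bp. A width of 1000 bp or more was reached by 22 of 57 members (38.6%) in replicate 1, beside 42.3% of all genes, and by 33 of 57 (57.9%) in replicate 2, beside 53.2%. The 2 libraries gave opposite orders of members and all genes, so neither order is a result about the members. The width was larger in replicate 2 at 43 members and in replicate 1 at 11.

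The widest in both libraries belonged to Evx2, which lies 8.75 kb from Hoxd13 at the end of the HoxD cluster. Its hotspot measured 2901 bp in replicate 1, place 233 by width among 145732, and 11591 bp in replicate 2, place 2 among 183723. Alx1 followed in the narrower library with 2065 and 2691 bp and Msx1 with 2025 and 3279 bp. Then came Nkx6-2 (1576 and 2658 bp), Lhx4 (1539 and 3956 bp), Hhex (1439 and 3476 bp), Hlx (1381 and 5498 bp) and Prrx1 (1354 and 4426 bp). Evx2 reached this width with a promoter rank of only 69.5 and 67.1, so width and peak strength did not go together there.

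Over a larger window the libraries gave the same order. Within 10 kb of the gene's 5′ end, hotspots covered a median of 2764 and 5328 bp at members, 1339.5 and 1742 bp at all genes, 6231 and 8452.5 bp at retinal homeobox and Pax genes, and 1136 and 1084 bp at Hox genes. In the 250 bp just downstream of the 5′ end, hotspots covered 67.3% and 77.5% of the sequence of the 47 members open in both libraries, less than the 83.6% and 86.8% of all genes open in both. From 2000 to 2250 bp downstream the order was the other way, with 35.98% and 55.5% at these members against 7.97% and 11.9%. From 5000 to 5250 bp downstream it was 22.6% and 39.7% against 3.76% and 5.33%. Over all 57 members, open or not, the order at the start was not the same: 56.8% and 70.5%, near or above the 57.6% and 60.2% of all protein-coding genes. From 2000 to 2250 bp all 57 members had 29.7% and 48.5%, against 5.87% and 8.75% of all genes. Coverage downstream of the start was thus higher at members in both ways of counting. Coverage at the start was lower in both libraries only among open genes.

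**Figure D2:**
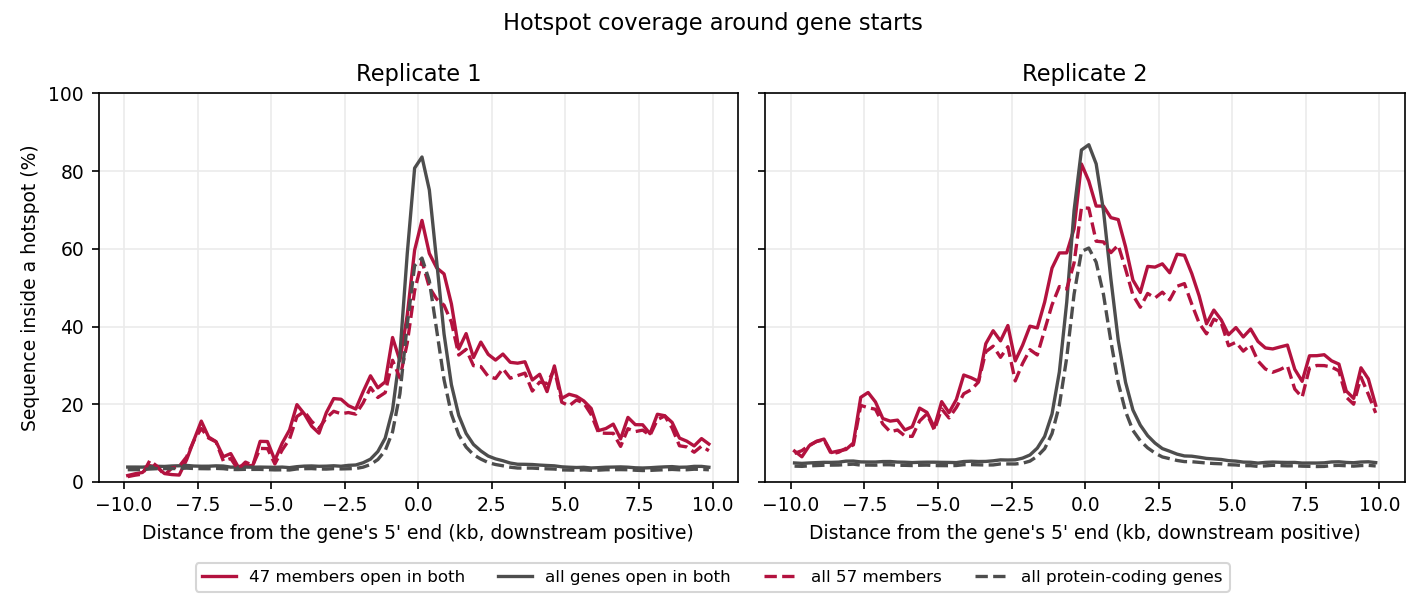
Share of sequence inside a hotspot (y axis, %) by distance from the gene's 5′ end (x axis, kb, downstream positive, bins of 250 bp) in each library, for the 47 members and all genes with a promoter peak in both libraries (solid lines) and for all 57 members and all protein-coding genes (dashed lines). At the start the solid members' line is below that of all open genes (67.3% and 77.5% against 83.6% and 86.8%), and at 2000 to 2250 bp downstream both members' lines are above those of the other genes.

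The ground around the members was rich in distal peaks. These lie more than 1 kb from any start site and were counted for the coding gene whose start is nearest. The nearest gene need not be the one a site acts on. The median over the members was 15 in replicate 1 and 25 in replicate 2 (mean 20 ± 7.07, SD, n = 2), against 2 in each library over all genes, and 1025 and 1456 in all. At least 10 in both libraries were assigned to 38 of 57 members (66.7%, interval 52.9 to 78.6), beside 15.3% of all genes. Members also own more of the genome, a median of 90.8 kb against 45.03 kb. Per 100 kb of that ground they had a median of 12.9 and 18.97 distal peaks, where the genome average was 4.39 and 6.10. The average was exceeded in both libraries by 50 of 57 members (87.7%), beside 35.3% of all genes. This richness was not particular to the members. Retinal homeobox and Pax genes had medians of 25.5 and 29.5 distal peaks, or 15.6 and 20.1 per 100 kb. At least 10 in both libraries were assigned to 76.7% of them. Hox genes had medians of 2 and 1, or 12.98 and 9.38 per 100 kb.

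Nkx6-1 had the most distal peaks in the library with fewer, 54 and 64, of which 37 and 36 were overlapped by a peak of the other library. Uncx, of the posterior part of each somite, had 49 and 59 over 113 kb (gene at chr5:139543494-139548179), a density of 43.3 and 52.2 per 100 kb. Pax1 had 45 and 41, Pax5 39 and 51, Msx2 43 and 39, Emx2 37 and 58, En1 45 and 34, and Lbx1 35 and 32. Among these 8 genes replicate 2 had more distal peaks at 4 and fewer at 4, while over all 57 members it had more at 42 and fewer at 12. Lhx5 followed in its group with 30 and 33, Hlx led the endoderm group with 26 and 59, and Gsx1 and Nkx2-1, with 21 and 37 and with 21 and 42, followed Emx2 in the forebrain group. Lmx1a, of the roof plate and dopamine neurons, had 24 and 39.

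By density rather than number, the highest in the lower library were Uncx, Evx2 (31.5 and 60.7 per 100 kb), Lhx4 (31.3 and 48.98) and Lbx1 (32.98 and 30.2). The heart gene Nkx2-5 had 26.2 and 53.9, with 17 and 35 peaks, and Pax9 had 26.5 and 40.95. At the other end Gsx2 had 1 and 17 distal peaks, or 1.86 and 31.6 per 100 kb, apart in the 2 libraries. Lhx6 had 2 and 1 distal peaks, or 4.08 and 2.04 per 100 kb, Phox2a had 1 and 2, or 3.16 and 6.32, and Meox2 had 9 and 16 over a long ground, or 2.09 and 3.72. All 57 members had at least 1 distal peak in each library, including the 3 without a promoter peak: Meox1 had 12 and 15, Nkx6-3 had 3 and 4 and Pax4 had 2 and 5. Median numbers of distal peaks by group were 18.5 and 29.5 at the midbrain genes, 15 and 26 at the spinal cord genes, 15 and 25 at the mesenchyme genes, 14 and 20 at the forebrain genes and 7 and 8 at the endoderm and posterior genes. The endoderm and posterior group was thus lowest in number, but not in density. Per 100 kb its medians were 12.9 and 19.1, level with the midbrain genes (12.9 and 19.1), while the mesenchyme genes were lowest at 10.5 and 11.5.

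**Figure D3:**
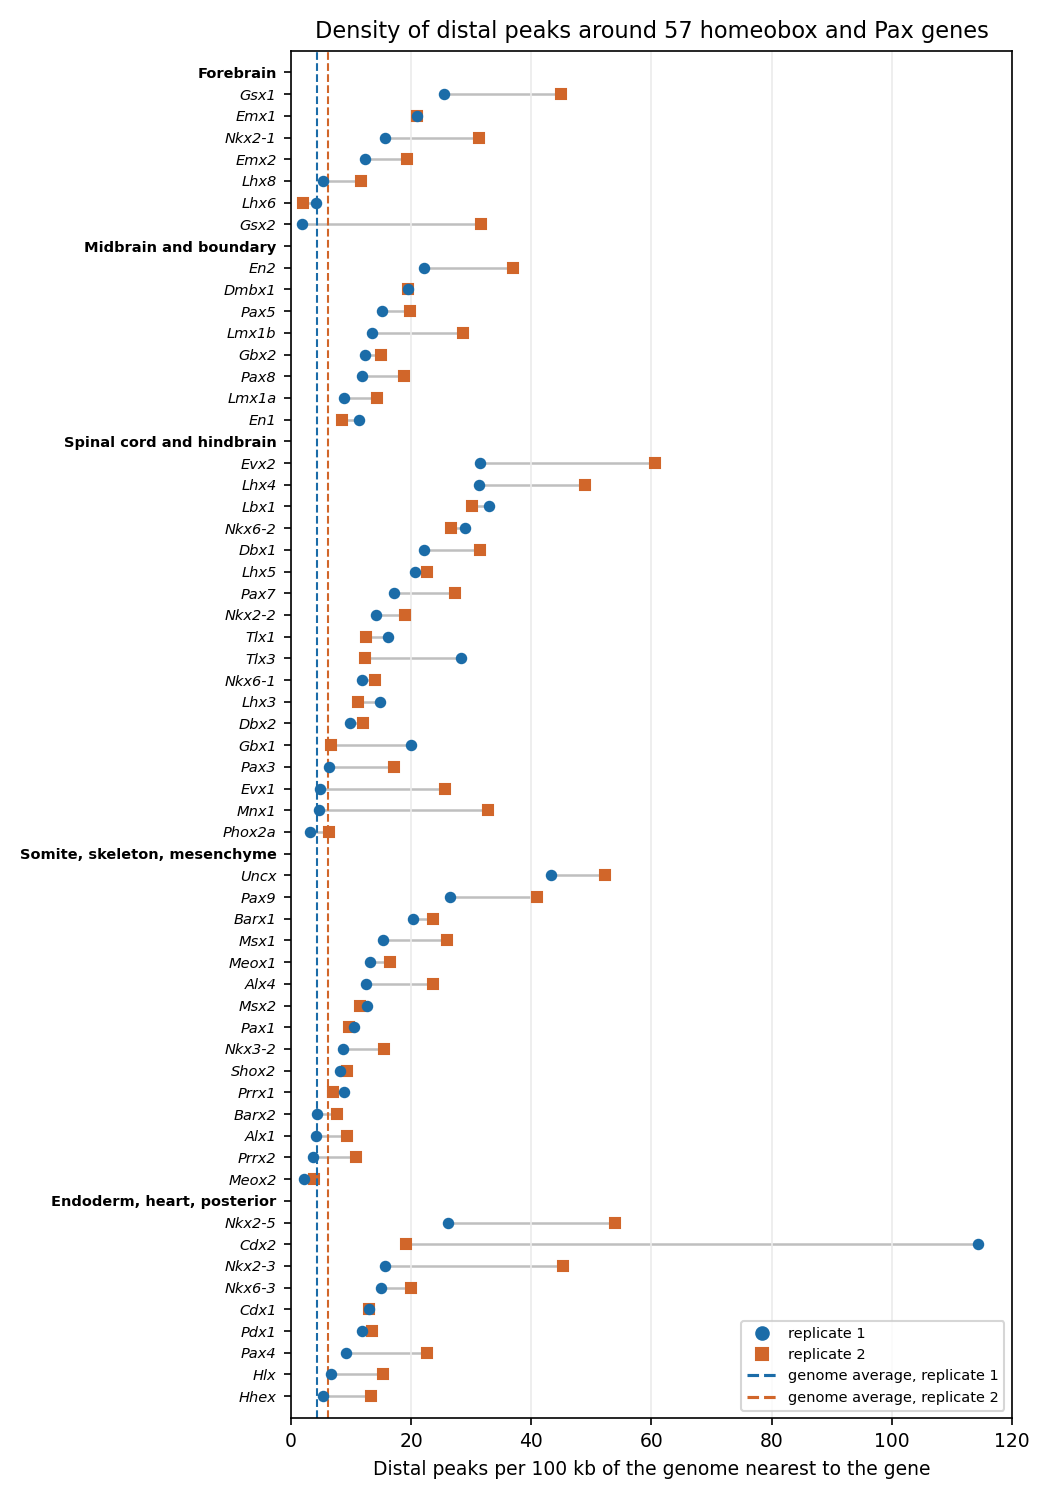
Distal peaks per 100 kb of genome nearest to the gene (x axis) for each of the 57 members, in the same groups; circles are replicate 1 and squares replicate 2, and the dashed lines are the genome averages of 4.39 and 6.10. Most members lie right of both lines, Uncx is high in both libraries, and Cdx2 stands far out in replicate 1 alone, at 114.3 against 19.1.

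Some members are neighbours, so their counts are not independent. Gsx1, Pdx1 and Cdx2 lie in a row, with 81.3 kb from Gsx1 to Pdx1 and 37.3 kb from Pdx1 to Cdx2. Tlx1 and Lbx1 are 85.1 kb apart, Nkx2-1 and Pax9 154.9 kb, and Nkx2-2 and Pax1 167.7 kb. A start site of another gene of any type lay within 1 kb of a member's start at 14 of 57 members, and that other gene was protein-coding at 1, Shox2, beside Rsrc1.

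The members' distal peaks were closer to the start than distal peaks in general. From 1 to 5 kb away lay 31.2% and 29.5% of them, against 18.5% and 17.4% of all distal peaks, and the median distance was 12213 and 11323 bp. Their median rank was 49.7 and 48.9, against 43.2 and 44.4, but only 29 and 48 of them reached rank 90 (2.83% and 3.30%), against 3.33% and 4.55% of all distal peaks. A peak of the other library overlapped 67.4% of those in replicate 1 and 45.5% of those in replicate 2, against 71.2% and 49.9%. By place, 9.76% and 9.48% were in exons, 33.5% and 32.8% in introns and 56.8% and 57.7% between genes. The members' distal peaks thus had higher median ranks than distal peaks in general, with no larger a share at rank 90.

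The strongest distal peak shared by both libraries is given for the 6 leading members, since these sites stood at rank 92.8 or above in both libraries. The Uncx site, chr5:139585356-139585505, lay 41533 bp downstream of the start with scores of 110 and 132 (ranks 95.6 and 97.5). The Emx2 site, chr19:59454316-59454465, lay 3981 bp upstream in an intron of Emx2os, with scores of 107 and 130. The Barx2 site, chr9:31925976-31926125, was 12589 bp upstream (98 and 119), and the Nkx3-2 site, chr5:41768496-41768645, was 4070 bp upstream (97 and 121), both between genes. The Msx2 site, chr13:53688596-53688745, lay 215597 bp from the gene in an intron of Gm34278 (105 and 113), and the Pax7 site, chr4:139821536-139821685, in an intron of Pax7 11396 bp from its nearest start (102 and 113). Sequences are on the plus strand of GRCm38 as called in replicate 1, with words from a list of 10 short motif cores in capitals.
Uncx: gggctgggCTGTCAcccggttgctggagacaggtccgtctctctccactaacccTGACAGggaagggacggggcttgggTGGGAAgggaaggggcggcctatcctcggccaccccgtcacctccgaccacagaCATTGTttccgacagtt
Emx2: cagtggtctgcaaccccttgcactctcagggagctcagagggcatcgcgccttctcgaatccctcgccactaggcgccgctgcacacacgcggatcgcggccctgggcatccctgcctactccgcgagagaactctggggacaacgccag
Barx2: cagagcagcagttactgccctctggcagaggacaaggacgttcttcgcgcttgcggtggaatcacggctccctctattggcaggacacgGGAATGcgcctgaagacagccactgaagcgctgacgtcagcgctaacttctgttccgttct
Nkx3-2: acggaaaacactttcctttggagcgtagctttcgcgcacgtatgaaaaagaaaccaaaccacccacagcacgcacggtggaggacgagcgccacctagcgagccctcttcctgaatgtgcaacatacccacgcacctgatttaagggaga
Msx2: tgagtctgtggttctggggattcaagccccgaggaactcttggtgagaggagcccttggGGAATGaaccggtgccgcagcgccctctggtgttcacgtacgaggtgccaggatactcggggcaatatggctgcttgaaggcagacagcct
Pax7: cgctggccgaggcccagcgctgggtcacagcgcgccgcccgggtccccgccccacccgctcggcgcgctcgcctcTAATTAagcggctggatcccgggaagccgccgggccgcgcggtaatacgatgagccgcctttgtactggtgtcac
The words searched, on both strands, were TAATTA (homeodomain core), TAATCC (OTX and CRX), CAGCTG and CATCTG (E-boxes), ACAATG (SOX), AGGGGGC (part of the CTCF motif), GGAATG (TEAD), TGGGAA (RBPJ), TGACAG (MEIS) and ATTTGCAT (octamer). None of the 10 overlapped another in these sequences. The Uncx site held TGACAG on each strand, TGGGAA, and ACAATG on the minus strand, the Barx2 and Msx2 sites held GGAATG, and the Pax7 site held TAATTA. No word of the list was in the Emx2 or Nkx3-2 site. A match describes the letters and does not show that a factor was bound.

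Across all 691 of the members' distal peaks shared by the libraries, TAATTA was found in 38 (5.50%), against 6.40% of 85078 shared distal peaks of the genome. The exact interval for the members' share, 3.92% to 7.47%, held the genome's value. CAGCTG was in 13.2% against 16.2%, ACAATG in 7.38% against 10.1%, TGACAG in 12.7% against 16.1%, TAATCC in 5.64% against 5.87%, CATCTG in 15.6% against 17.3%, GGAATG in 7.96% against 9.28% and TGGGAA in 14.6% against 16.1%. Only AGGGGGC (7.81% against 7.36%) and the octamer (1.01% against 0.953%) were at least as frequent as in the genome. The members' peaks were richer in G and C, with a median of 54% against 50%. The part of base composition in these shares was not tested. In promoter peaks TAATTA was found in 6 of 166 shared peaks of members (3.61%), against 1.40% of 30843.

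The 2 libraries disagreed at a small set of these genes over whole loci. A locus was counted where hotspots within 10 kb of the 5′ end covered at least 5 times as many bases in 1 library as in the other and at least 2000 bp in the larger, limits chosen after the values were seen. The median length was below 2000 bp over all genes (1339.5 and 1742 bp) and above it at members (2764 and 5328 bp). The shares of all genes given here were not limited to genes that reached 2000 bp, so they are not like for like. That held at 8 of 57 members (14.0%), beside 0.342% of all genes, at none of the 30 retinal homeobox and Pax genes and at 4 of 39 Hox genes (Hoxd3, Hoxd4, Hoxd8 and Hoxd9, all with more in replicate 1). Replicate 2 had more at 6 of the members: Pax3 (270 and 10267 bp), Lmx1b (1783 and 11457 bp), Evx1 (1340 and 9668 bp), Pax7 (299 and 7081 bp), Mnx1 (1003 and 6614 bp) and Gsx2 (205 and 5019 bp). Replicate 1 had more at Cdx2 (8511 and 315 bp) and En1 (8088 and 1108 bp). With a limit of 10 times the count was 4 members, Cdx2, Gsx2, Pax3 and Pax7, beside 0.150% of all genes, and with a limit of 3 times it was 10, beside 0.779%.

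The loci were chosen for a difference in hotspot length, so many unmatched peaks in the library with more follow from that choice. The overlap counts below describe the loci and are no support for the difference. Over all distal peaks, 71.2% in replicate 1 and 49.9% in replicate 2 were overlapped. At 4 of the 6 loci with more in replicate 2, all or nearly all distal peaks of replicate 1 were found again, though 2 of these rest on 3 peaks or fewer. At Pax3, of the dorsal neural tube and muscle precursors, 24 of the 25 distal peaks of replicate 1 were overlapped in replicate 2, and 22 of the 68 of replicate 2 in replicate 1. Evx1 had 7 of 7 overlapped and 7 of 38, Mnx1 3 of 3 and 3 of 21, and Gsx2 1 of 1 and 1 of 17. At the other two, Lmx1b had 17 of 22 overlapped in replicate 1 and 17 of 47 in replicate 2, and Pax7 18 of 27 and 17 of 43. En1 was different, with 14 of 45 overlapped in replicate 1 and 14 of 34 in replicate 2, so each library had a large set of its own. Tlx3, with 16 and 7 distal peaks, and Gbx1, with 6 and 2, also had more in replicate 1.

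Cdx2 (chr5:147300805-147307270) was the member open in replicate 1 alone. In the gene and 20 kb on either side replicate 1 had 52 peaks and replicate 2 had 7, in hotspots covering 15027 and 1503 bp. The 6 peaks of each library that overlapped had median scores of 74.5 and 96, whereas the 46 found in replicate 1 alone had a median of 18 and a highest score of 41. The promoter held 8 peaks in replicate 1 and none in replicate 2, and distal peaks numbered 30 and 5. Across the genome, 183 of 272564 windows of 10 kb had at least 10 peaks and 5 times as many in replicate 1 as in replicate 2, 2 of them at Cdx2, and 115 had the reverse. Endoderm markers were open for 4 of 8 in replicate 1 and 6 of 8 in replicate 2, with Alb and Cdh17 in neither. Their part in the Cdx2 difference was not tested. Without Cdx2 the members' medians were 14.5 and 25 distal peaks and ranks of 78.0 and 78.3, close to those with it.

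**Figure D4:**
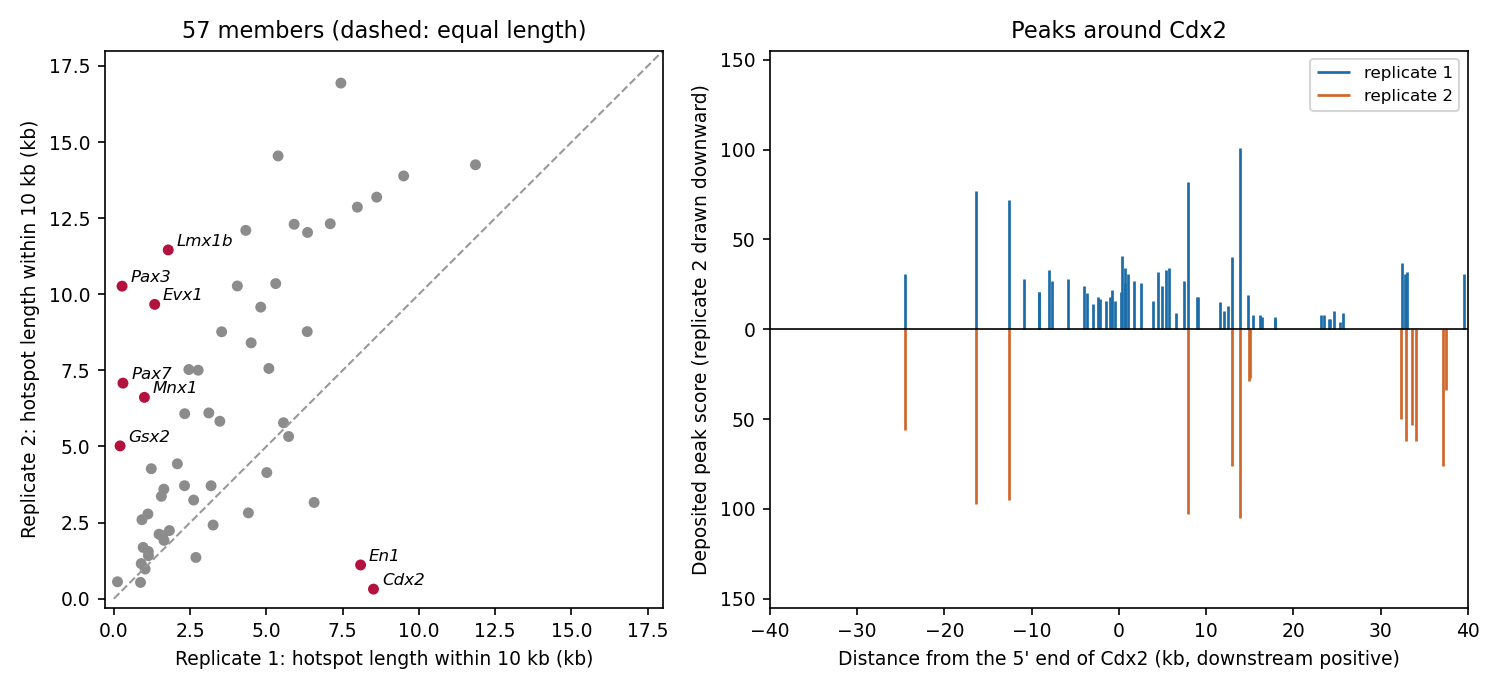
Left, hotspot length within 10 kb of the 5′ end in replicate 1 (x axis, kb) and replicate 2 (y axis, kb) for the 57 members, with the 8 that differed at least 5-fold in red; right, every peak within 40 kb of the Cdx2 5′ end by distance (x axis, kb) and deposited score (y axis), replicate 1 upward and replicate 2 downward. The 46 peaks of replicate 1 alone score at most 41 in the gene and 20 kb around it, and the taller peaks are matched in replicate 2.

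The start regions of Cdx2 and Gsx2, open in opposite libraries, are shown from RefSeq (GRCm38.p6, each on its gene's strand, CpG in capitals) to set the disagreement beside the DNA. The RefSeq promoter table held 45 of the 57 members. Printed are the parts outside coding-gene exons, chr5:147307271-147307499 for Cdx2 and chr5:75075351-75075600 for Gsx2.
Cdx2: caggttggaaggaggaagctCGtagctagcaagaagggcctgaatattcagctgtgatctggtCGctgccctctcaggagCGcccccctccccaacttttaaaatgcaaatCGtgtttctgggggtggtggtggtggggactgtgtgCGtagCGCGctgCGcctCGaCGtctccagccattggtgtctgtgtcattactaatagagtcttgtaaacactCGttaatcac
Gsx2: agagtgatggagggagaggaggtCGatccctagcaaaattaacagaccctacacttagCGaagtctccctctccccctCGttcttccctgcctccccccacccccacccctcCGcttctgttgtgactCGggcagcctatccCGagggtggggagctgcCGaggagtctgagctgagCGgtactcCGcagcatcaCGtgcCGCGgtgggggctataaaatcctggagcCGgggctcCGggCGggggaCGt
The whole windows, 250 bp before to 50 bp after the start, held 18 CpG for Cdx2 and 17 for Gsx2, where the median of 32851 RefSeq promoters was 7, and 29.7% and 31.4% of them held as many or more. Both were thus CpG-rich starts without a peak in 1 of the libraries, in CpG decile 6, where 96.3% of all genes were open in both.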

How the data were processed

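DNase-seq of 2 libraries of retina was analysed from the lists of peaks and hotspots that the authors deposited for each library separately on mm10, per the labels. The deposited peak score (1 to 150, meaning not stated) was used only within a library. The deposited hotspot lists give the −log10 q of each hotspot, from 1.30 to 100. Aligner, caller and filters were not given in the sources used here. Exact duplicate lines (34 and 56) were removed. Peaks off the assembled chromosomes (232 and 166) stayed in the ranking of scores but were not counted as promoter or distal peaks. Scores written as decimals (12.1% and 7.80%) were kept.

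Genes came from GENCODE release M21 and sequences from GRCm38. Rank is the percentile of a score among the library's peaks, and CpG is observed over expected within 500 bp of the start site. Shares carry exact Clopper-Pearson 95% intervals, which cover counting of genes only. No test was possible with 1 group, and the depth of each library is unknown. Python 3.11.15, numpy 2.4.6, scipy 1.17.1 and pysam 0.24.0 were used, and counting was checked on simulated data.

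Named genes were, in each group, the 4 highest promoter ranks and 3 largest distal counts in the lower library, every member without a promoter peak in 1 or both libraries, and the 8 widest hotspots. Others are named to account for all members. Members and lists were chosen with earlier results of these data known. Alternatives changed the promoter window, the peaks kept, the distal limit, the overlap and the library used.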

Additional observations from a re-analysis of the deposited data

How the results depend on the processing

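Of the summary values recomputed under other settings, 46 were the same within the limits used and 7 moved. A change of direction was not looked for. The limits were 1 SD of the libraries' values, or 1.5 times for a count. That SD was 0.616 for the rank but 751 bp for hotspot width and 7.07 for distal peaks, so these counts do not show stability. Of single members' values, 358 were the same and 92 moved. The median promoter rank of open members, 77.9 over the libraries, was 76.1 with a window of 500 bp, 78.7 with 2 kb and 75.7 with only the gene's 5′ end. Distal peaks, with a median of 20, came to 9 with only peaks at or above the library's median score, 7 more than 10 kb from any start site and 10.5 when peaks went to the nearest start of any gene. More than 10 kb from any start site, 33 members exceeded the genome average of distal density in both libraries, beside 20.1% of all genes. With 1 library alone the members open were 48 to 53, the median rank 77.4 to 78.3, the hotspot width 651 to 1713 bp, the distal peaks 15 to 25, members at rank 90 numbered 8 in each, those above the average density 50 to 55, the overlapped share 45.5% to 67.4%, and the share with TAATTA 5.27% to 6.32%. A window of 500 bp lost Lmx1b from the members open in both, one of 2 kb gained Pax7, Cdx1 and Dbx2, the 5′ end alone lost Prrx2, and leaving out decimal scores lost Pax3. No paired analysis was possible because there is a single group. Depth is unknown, so a missing peak cannot be told apart from a lack of reads.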
